A study of Capra hircus and Bos taurus with 7 samples.

Results

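The miR-181 family was followed through the small RNA of extracellular vesicles, the membrane-bound particles that cells shed into milk, recovered from reconstituted milk powders. Its members were taken by name, as every row whose miRNA name without species prefix and arm is miR-181a, miR-181b, miR-181c or miR-181d. This gave 4 of 364 rows, bta-miR-181a, bta-miR-181b, bta-miR-181c and bta-miR-181d, each without an arm in its name. The 7 libraries were 3 from whole goat (Capra hircus) milk powder, lettered A to C, 3 from skimmed goat milk powder, lettered A to C, and 1 from a commercial bovine (Bos taurus) powder. All were reconstituted in warm water before size exclusion chromatography, and all were named against bovine miRNAs. The labels do not say whether a letter marks a separate pack, lot or repeat isolation, so every p-value here reflects library-to-library spread, and that spread may be technical. Nor do they say that the whole and skimmed powders share a source of milk, so removal of fat and other differences between the powders cannot be told apart. Totals ran from 5675489 miRNA reads in the bovine library to 11963849 in whole C.

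The miR-181 miRNAs share one seed, the stretch of bases that pairs with target mRNAs, and therefore overlap in their predicted targets. In mammalian genomes miR-181a and miR-181b are cut from duplicated precursor clusters, and miR-181c and miR-181d from a separate one. The family is best known from lymphoid development, where miR-181a lowers phosphatases that restrain T cell receptor signalling, and it is also made in many other tissues. In the RefSeq gene table of the goat assembly ARS1.2, MIR181B lies within NR6A1, which encodes an orphan nuclear receptor, and MIR181D and MIR181C are listed next to each other, followed by ZSWIM4, MIR23A and MIR27A. That table was used for names and neighbours only, since no source used here names the build behind the counts. A mature row pools the reads of all its precursors, so the loci behind miR-181a or miR-181b cannot be told apart.

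Goat powder vesicles carried the family almost entirely as miR-181a and miR-181b. By mean over the 6 goat libraries miR-181a was 36th and miR-181b 82nd of the 364 miRNAs. The level of miR-181a, in counts-per-million of miRNA reads (CPM), was 4033, 4378 and 4024 CPM in whole libraries A, B and C, and 4886, 4390 and 4246 CPM in skimmed libraries A, B and C. Skimmed A was the highest and whole C the lowest, and the powders overlapped, since whole B lay above skimmed C. The level of miR-181b was 576, 524 and 449 CPM in whole A, B and C, and 385, 566 and 358 CPM in skimmed A, B and C. Here whole A was the highest and skimmed C the lowest, and skimmed B stood among the whole libraries. Within a library miR-181a ranked between 34 and 40 and miR-181b between 77 and 84 in goat. In the bovine library miR-181a stood at 1387 CPM (95% exact Poisson interval 1356 to 1418) and rank 50, and miR-181b at 288 CPM (274 to 302) and rank 77. Intervals of this kind cover counting error only, since reads copied by PCR were not traced to single molecules.

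**Figure D1:**
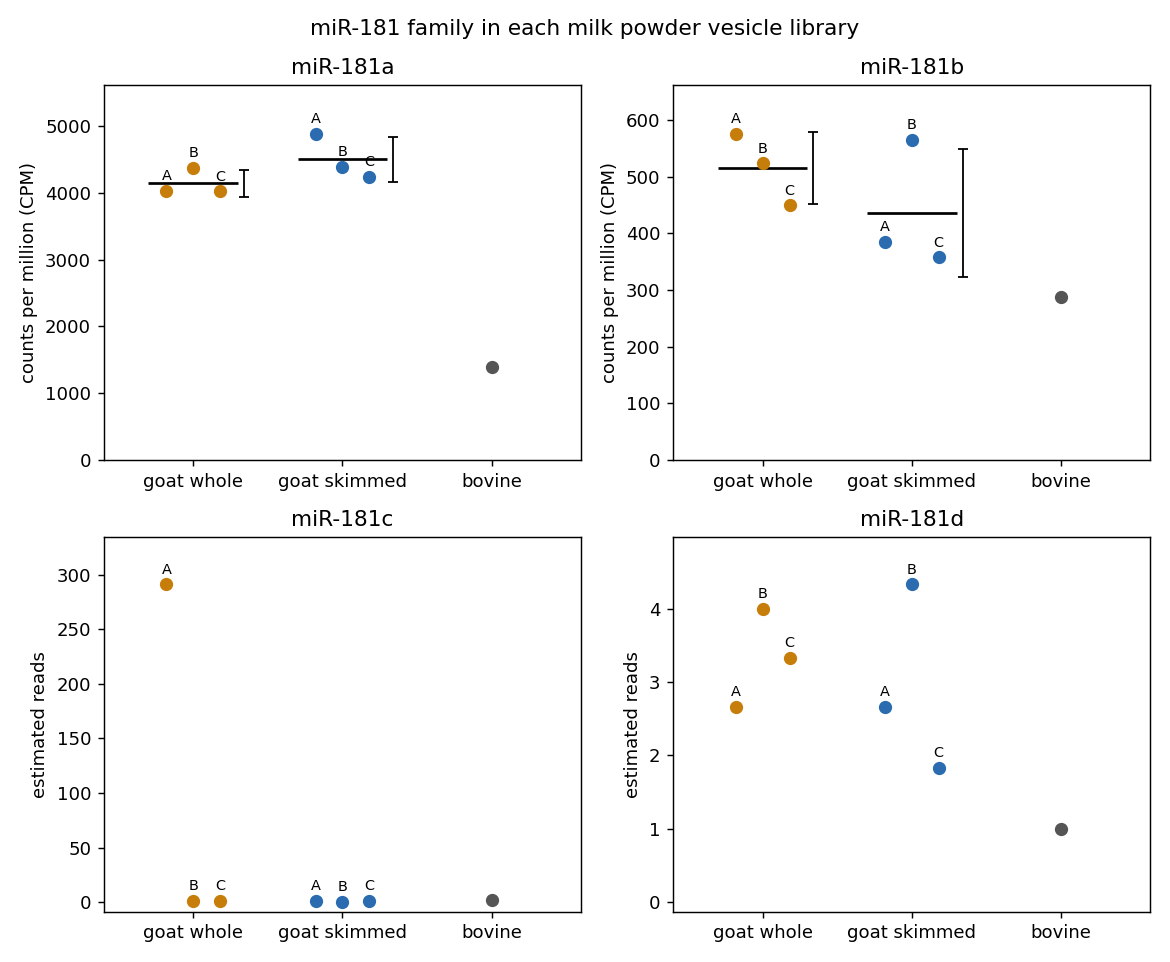
Level of each miR-181 family member in every library, in CPM for miR-181a and miR-181b and in estimated reads for the low miR-181c and miR-181d. Points are single libraries with their letters, and where drawn the horizontal lines are means and the bars SD (n = 3). Of the 7 libraries only whole A holds more than 2 reads of miR-181c, with 291, and both miR-181a and miR-181b are lowest in the bovine library.

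Counting error was far smaller than the spread between libraries. It came to at most 0.615% of the value for miR-181a and 1.87% for miR-181b, while the coefficient of variation over the 6 goat libraries was 7.34% for miR-181a and 19.6% for miR-181b. Among the 126 miRNAs with a goat mean of at least 100 CPM, miR-181a was the 7th least variable within the powders, with a pooled SD of 0.09 on the log2(CPM + 1) scale. The same SD was 0.28 for miR-181b, close to the median of 0.31 over these miRNAs.

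The paralogs miR-181c and miR-181d were near the limit of detection. miR-181d had 2.67, 4 and 3.33 estimated reads in whole A, B and C, 2.67, 4.33 and 1.83 in skimmed A, B and C, and 1 in the bovine library. No library stood out for it, and 3 reads, taken as the floor, correspond to between 0.251 and 0.529 CPM over the 7 libraries. miR-181c had 291 reads in whole A but 1 in whole B, 1 in whole C, 1, 0 and 1 in skimmed A, B and C, and 2 in the bovine library. Whole A thus held it at 44.3 CPM, a ratio of 528 (95% exact interval 204 to 1951, counting error only) over the 4 reads pooled from the other 5 goat libraries. Whether single reads such as these came from the sample itself was not tested. In whole A the 291 reads made up 0.953% of the family. Its neighbour miR-181d was not raised in whole A. This pattern of 1 library alone was shared by other miRNAs. Those abundant in every library, or with few reads in all, cannot show it but count in the total that follows. Of all 364 miRNAs, 40, or 11.0%, had at least 100 reads in 1 goat library and at most 10 in each of the others, with 6 of these in whole A. Besides miR-181c those of whole A were miR-9851, miR-10b, miR-376b, miR-2411-3p and miR-3956, with 142 to 437 reads, a set named after its values were seen.

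Of the miRNAs encoded next to miR-181c and miR-181d, miR-23a and miR-27a-3p were abundant in every goat library, and miR-27a-5p was not. miR-23a, which is transcribed with miR-27a, ranged from 11993 to 16018 CPM in the goat libraries, with a median of 13909 CPM, and stood at 7280 CPM in the bovine one. miR-27a-3p ranged from 735 to 1614 CPM in goat and stood at 51.6 CPM in bovine. miR-27a-5p, from the other arm of the same precursor, had 1 read in whole A and 1 in skimmed B, stood between 54.6 and 157 CPM in the other 4 goat libraries, and had 3 reads in the bovine one. These 3 were chosen after the values of miR-181c were seen. Reads named miR-23a, a mature miRNA close in sequence to miR-23b, were abundant in every goat library. This held in whole A, at 14359 CPM, and in all the others, where miR-181c was at 0 or 1 read. Whether miR-23a and miR-181c share a transcript was not tested.

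In their deposited values, miR-181a, miR-181b and miR-181d were each whole numbers, within 1e-06, in 1 of 6 goat libraries, while miR-181c was whole in 6 of 6, and all 4 were whole in the bovine library. No source used here says how the fractions arose. The mature miR-181 miRNAs are close in sequence, so how goat reads were apportioned among the members, or between them and entries outside the family, is uncertain. The sum of the family stood at 4654, 4902 and 4474 CPM in whole A, B and C, and at 5271, 4956 and 4604 CPM in skimmed A, B and C, which is 0.481% ± 0.0291 (SD, n = 6) of goat miRNA reads. Of the family's reads, miR-181a held 88.6% ± 1.74 in whole and 91.2% ± 2.25 in skimmed powder (SD, n = 3 each), and miR-181b 11.0% ± 1.20 and 8.83% ± 2.25.

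The design set skimmed against unskimmed goat powder, which asks whether the vesicle miRNAs differ between them. Neither tested member of the family passed. miR-181a averaged 4145 ± 202 CPM in whole powder and 4507 ± 336 CPM in skimmed powder (SD, n = 3 each). The quasi-likelihood test of edgeR put its log2 fold change, skimmed over whole, at 0.22 ± 0.12 (SE), with adjusted p = 0.57 by Benjamini-Hochberg across the 209 tested miRNAs. miR-181b averaged 516 ± 63.5 CPM in whole powder and 436 ± 113 CPM in skimmed powder. Its log2 fold change in the same edgeR fit was -0.15 ± 0.29 (SE), with adjusted p = 0.96. Of the 4 members 2 passed the filter on low counts, and 0 of these 2 were called, where 1 of all 209 tested miRNAs, or 0.478%, was called in either direction. Before adjustment 22 of the 209 lay under 0.05 in edgeR, and neither member was among them, at places 36 and 122 in order of p. The median log2 fold change over all 209 was 0.03. On CPM the powders overlapped for both members. On CPM scaled by TMM (the trimmed mean of M-values, which adjusts for composition) miR-181a no longer overlapped, at 3964 to 4105 in whole and 4258 to 5268 in skimmed, and miR-181b still did. Groups that did not overlap were found for 20.1% of tested miRNAs on CPM and, by the same count, for 20.1% on TMM-scaled CPM. Without skimmed A the log2 fold change of miR-181a was 0.10, and that of miR-181b was -0.37 without skimmed B, -0.07 without whole A and -0.03 without skimmed C, none of them past the threshold in edgeR. With upper-quartile scaling, which moved the median over all tested miRNAs by -0.15, the values were 0.07 for miR-181a and -0.32 for miR-181b.

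**Figure D2:**
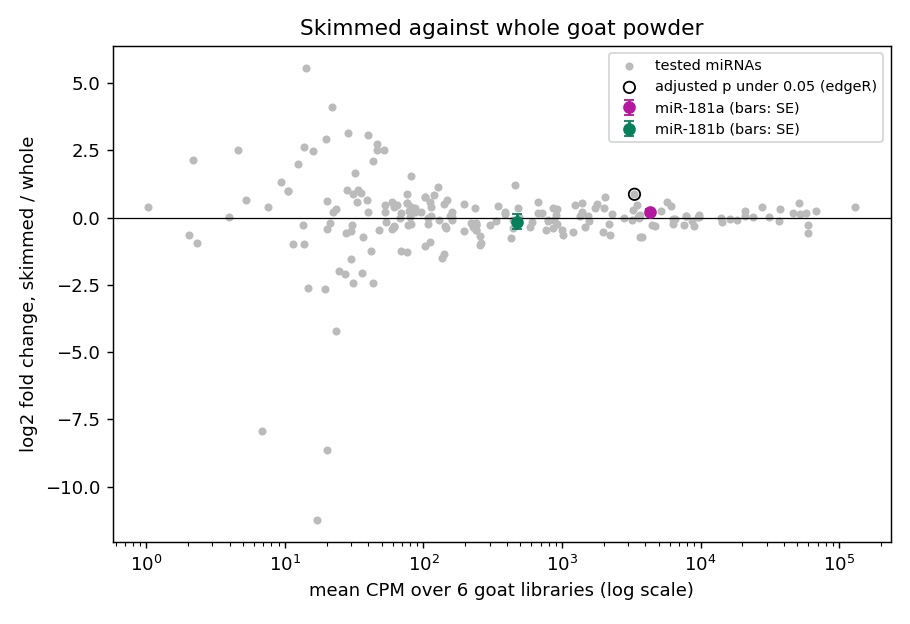
Log2 fold change of skimmed over whole goat powder in edgeR against mean CPM over the 6 goat libraries (log axis) for the 209 tested miRNAs. miR-181a at 0.22 and miR-181b at -0.15, drawn with their SE, lie within the cloud around 0, and the ring marks the 1 miRNA past the threshold.

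The sum of the family overlapped between the powders on CPM and did not on TMM-scaled CPM. On CPM it averaged 4677 ± 215 CPM in whole powder and 4944 ± 334 CPM in skimmed powder (SD, n = 3 each). The difference of 267 CPM had an exact two-sided permutation p = 0.3, and the smallest p this design can give is 0.1. This difference ranged from 103 CPM without skimmed A to 437 CPM without skimmed C, and was 165 CPM without whole C. On TMM-scaled CPM the sum was 4419 to 4596 in whole and 4617 to 5682 in skimmed powder, a difference of 588 with an exact two-sided permutation p = 0.1, the smallest this design can give. As miR-181a made up 86.7% to 92.7% of the family in the goat libraries, this largely repeats the separation of miR-181a and is not a second result. Groups that did not overlap were found for 20.1% of tested miRNAs on TMM-scaled CPM.

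The ratio of miR-181a to miR-181b does not depend on the library total. It was 7.0, 8.36 and 8.95 in whole A, B and C, and 12.7, 7.76 and 11.9 in skimmed A, B and C. Skimmed A and C lay above every whole library, and skimmed B lay between whole A and whole B. On the log2 scale the ratio averaged 3.01 ± 0.18 in whole and 3.40 ± 0.39 in skimmed (SD, n = 3 each). The difference of 0.39 had an exact two-sided permutation p = 0.3. It was also 0.3 after Benjamini-Hochberg adjustment over the 2 main single-value tests, the family sum on CPM and this ratio. The test of the TMM-scaled sum and those of the other alternatives were not adjusted. Without skimmed A the difference was 0.25 and without skimmed B 0.61. Among the skimmed libraries the coefficient of variation was 25.9% for miR-181b and 7.45% for miR-181a.

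**Figure D3:**
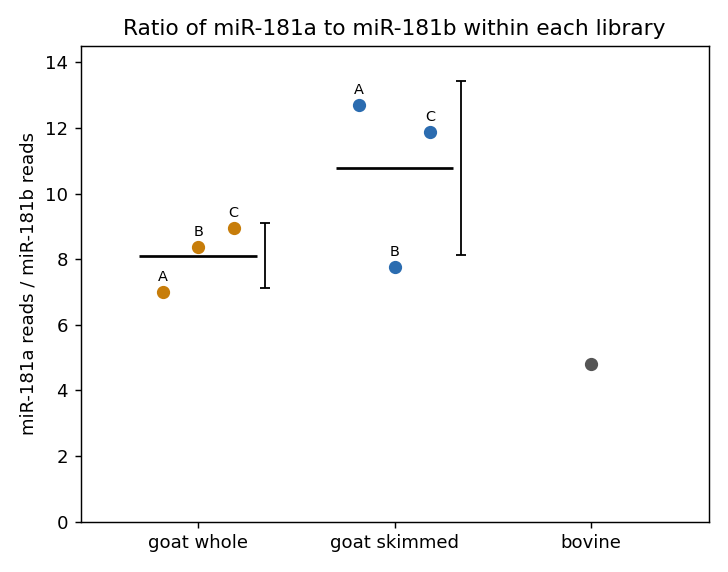
Ratio of miR-181a to miR-181b reads within each library, for whole goat, skimmed goat and bovine powder. Points are libraries with their letters, lines are means and bars SD (n = 3). The goat ratios run from 7.0 to 12.7, and the bovine ratio of 4.81 lies below all of them.

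Across the goat libraries the 2 abundant members did not move together. Their log2(CPM + 1) values had a Pearson r of -0.36 over 6 libraries, and of 125 miRNAs with a goat mean of at least 100 CPM, miR-181b was 78th in likeness to miR-181a by r and 58th by the SD of the log2 ratio. In likeness to miR-181b, miR-181a was 102nd by r and 31st by that SD. Such values are descriptions over 6 libraries that share totals and scaling, and no p is given. The miRNAs most like miR-181a by r were miR-362-5p (0.94), miR-7 (0.93), miR-375 (0.92), miR-664b (0.91) and let-7b (0.90). By the smallest SD of the log2 ratio to miR-181a, the nearest were miR-30d (0.06), let-7f (0.09), miR-375 (0.09), miR-7 (0.10) and miR-200c (0.12). miR-375, a miRNA of secretory epithelia, and miR-7 were in both sets. For miR-181b the most alike by r were miR-10174-3p (0.87), miR-4286 (0.83), miR-93 (0.82), miR-101 (0.74) and miR-1839 (0.70). By SD of the log2 ratio they were miR-10174-3p (0.17), miR-103 (0.22), miR-151-5p (0.22), miR-26b (0.24) and miR-374a (0.24). The sets of miR-181a and miR-181b had no miRNA in common. For the sets by r, this follows from the r of -0.36 between the 2 members and adds nothing to it.

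**Figure D4:**
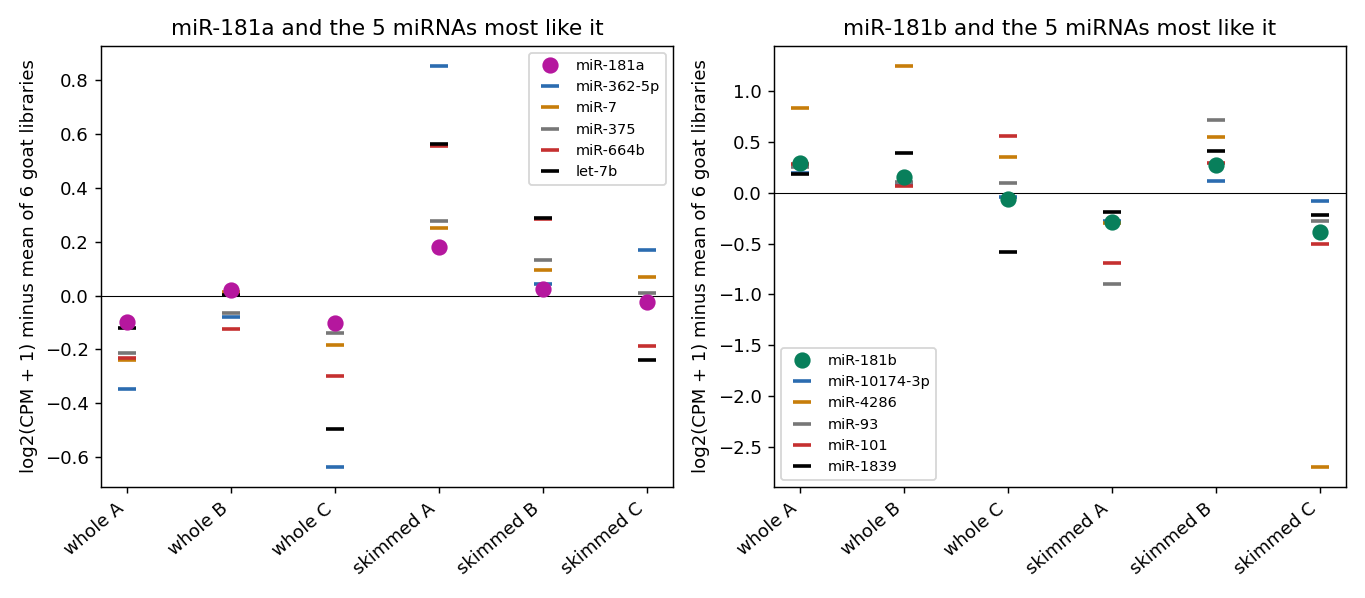
Values of log2(CPM + 1) in each goat library minus the mean over the 6 goat libraries, for miR-181a (left) and miR-181b (right) as circles and for the 5 miRNAs with the highest Pearson r to each as dashes. miR-181a is highest in skimmed A, while miR-181b is highest in whole A and lowest in skimmed C.

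In order of abundance, miR-181a stood among miRNAs whose levels overlapped its own. Just above it by goat mean were let-7i (5153 ± 633 CPM), miR-30e-5p (4670 ± 971 CPM) and miR-99a-5p (4476 ± 645 CPM), and just below it miR-320a (4307 ± 991 CPM), miR-125a (3751 ± 1373 CPM) and miR-151-5p (3672 ± 381 CPM; SD, n = 6 throughout). Of these, miR-151-5p was below miR-181a in all 6 goat libraries, and the other 5 were above it in some libraries and below it in others. Around miR-181b stood miR-28 (585 ± 192 CPM), miR-487b (487 ± 180 CPM) and miR-7 (482 ± 61.1 CPM) above, and miR-339a (460 ± 224 CPM), miR-93 (446 ± 157 CPM) and miR-361 (443 ± 147 CPM) below. Each of these 6 was above miR-181b in 2 to 4 of the 6 libraries.

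The bovine powder gave a second species, with 1 library and no test. Effects of species, of product and of the library itself cannot be told apart. miR-181a was lower there, at 1387 CPM against 4326 ± 317 CPM (SD, n = 6) in goat, a goat level 3.12 times the bovine one. The lowest goat library still stood at 2.90 times the bovine level. miR-181b was 288 CPM against 476 ± 93.1 CPM in goat, a factor of 1.65, and lay below the lowest goat library at 358 CPM. Lower bovine values were common. Of the 126 miRNAs with a goat mean of at least 100 CPM, 45.2% were at least 2-fold lower in the bovine library, 11.1% at least 2-fold higher, and 55.6% below the range of the 6 goat libraries. Read against that background, 1 of the 2 abundant members was past 2-fold and both were below the goat range, which sets the family apart in neither count. In order from the lowest bovine to goat ratio, miR-181a was 45th and miR-181b 66th of 126. With TMM scaling over all 7 libraries the factor was 2.30 for miR-181a and 1.22 for miR-181b, whose bovine value of 374 then lay within the goat range of 349 to 540.

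**Figure D5:**
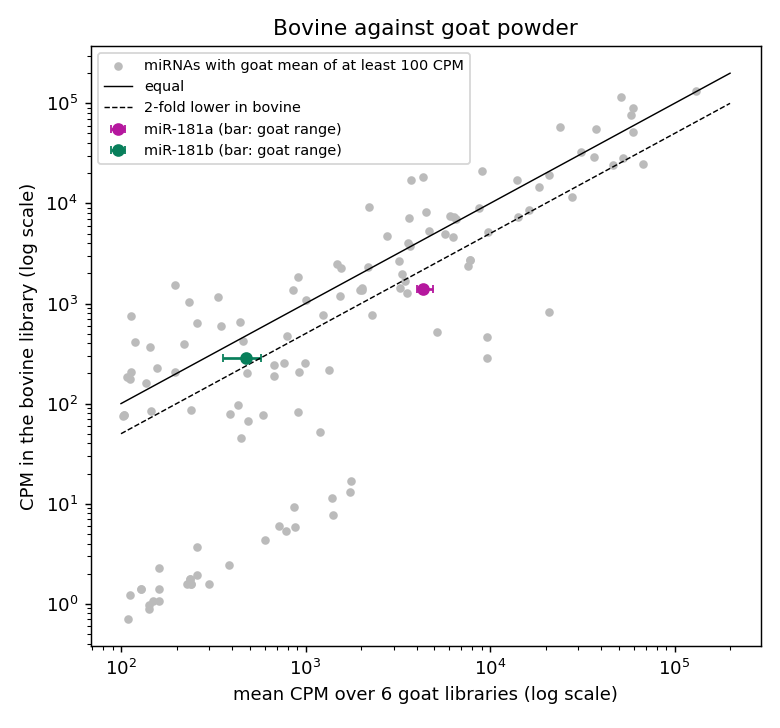
CPM in the bovine library against mean CPM over the 6 goat libraries for 126 miRNAs with a goat mean of at least 100 CPM, both axes logarithmic. miR-181a, drawn with its goat range, lies below the dashed line of a 2-fold lower bovine level, and miR-181b lies between that line and equality.

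The balance between the members also differed in the bovine library, a measure that scaling does not touch. It does depend on how reads were apportioned among the members, which is uncertain for goat reads named against bovine miRNAs. Values of miR-181a and miR-181b were each whole numbers in 1 of 6 goat libraries, and both were whole in the bovine one. What part this had in the difference was not tested. The ratio of miR-181a to miR-181b was 4.81 in bovine and 7.0 to 12.7 in goat, a log2 difference of -0.94 from the goat mean of 3.20. miR-181a made up 82.8% of the bovine family reads (95% exact Clopper-Pearson interval 82.0 to 83.5) and miR-181b 17.2% (16.4 to 17.97). In goat the share of miR-181a was between 86.7% and 92.7%. The whole family took 0.168% of bovine miRNA reads (0.164 to 0.171), against 0.447% to 0.527% in the goat libraries. With 1 bovine library, this difference has no replicate check.

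Markers of cell types that milk can hold were measured beside the family, because miR-181a and miR-181b are made in leukocytes as well as in other cells. Of all 209 tested miRNAs 1, or 0.478%, was called between the powders. At that share, 0 calls in a short list do not tell it from the other miRNAs. The leukocyte list (miR-150, miR-155, miR-142, miR-146a, miR-146b, miR-223 and miR-342) had all 7 names present and 0 of 7 tested rows called in edgeR, with a median log2 fold change of 0.06 between the powders. Its summed level was 24308 to 29682 CPM in whole, 26797 to 28585 CPM in skimmed and 2221 CPM in bovine powder, which is 0.0807 of the goat mean. A lower bovine level was not particular to this list. Of the 126 miRNAs with a goat mean of at least 100 CPM, 45.2% were at least 2-fold lower in the bovine library. The summed stromal and endothelial list stood at 0.00948 of the goat mean, the erythroid one at 0.0048 and the epithelial one at 1.01. miR-146b, the most abundant of the leukocyte list, was at 21103 CPM on average in whole, 20677 CPM in skimmed and 828 CPM in bovine. miR-342 stood at 3659, 3431 and 1287 CPM in whole, skimmed and bovine, and miR-142-5p at 261, 216 and 85.7 CPM, bovine to goat ratios of 0.363 and 0.360. miR-155 was at 7.75 CPM in bovine and miR-223 at 11.5 CPM, ratios of 0.00553 and 0.00823. miR-150 was at 0 in bovine, but also near 0 in skimmed goat (0.0402 CPM on average). Of miRNAs with a goat mean of at least 100 CPM, 28 had bovine to goat ratios between 0.00529 and 0.0144, and miR-155, miR-223 and the stromal miR-143 were among them. Whether reads as few as these came from the bovine sample or passed between libraries was not tested, so such bovine values are uncertain as levels. The part of leukocyte miRNAs in the lower bovine miR-181a level was not tested. The epithelial list (the miR-200 family, miR-205, miR-375 and miR-183, 8 of 9 names present) stood at 99494 to 104873 CPM in whole, 105512 to 114427 CPM in skimmed and 107571 CPM in bovine, with 0 of 8 called and a median log2 fold change of -0.17. The sum was thus higher in every skimmed library than in any whole one, while only 3 of the 8 members had a log2 fold change above 0. Among single tested miRNAs, 20.1% did not overlap on CPM. Members of this list also went both ways in the bovine library. Their bovine to goat ratios ran from 0.414 for miR-375 to 1.56 for miR-205, with miR-200c, the most abundant, at 1.48. Of the stromal and endothelial list, miR-126, miR-143 and miR-145 were present (3 of 6 names, 0 of 2 tested called, median -0.02), at 1487 to 1654 CPM in whole, 1690 to 2458 CPM in skimmed and 17.2 CPM in bovine. That median lies between 2 opposite log2 fold changes, 0.52 ± 0.14 (SE) for miR-143 and -0.56 ± 2.48 (SE) for miR-145. The erythroid list had 1 of 3 names present, miR-486, at 23.6 to 72.8 CPM in whole, 15.6 to 38.6 CPM in skimmed and 0.176 CPM in bovine, and its log2 fold change of -0.72 did not pass.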

How the data were processed

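Per the labels' protocols, vesicles were isolated from 7 samples of reconstituted powder by size exclusion chromatography, RNA was extracted for total RNA including small RNA, and gel-selected small RNA libraries were read as single-end 50 base reads. The deposited tables hold estimated counts per mature miRNA, per the file headers and values, and were not normalized. No source used here names the aligner, counter, miRNA reference or build. Sequences of the members were not used here.

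CPM was computed over all 364 rows of a library, and tests used rounded counts. The comparison of powders used edgeR 4.0.16 (R 4.3.3) on the 6 goat libraries: default low count filter (209 kept), TMM factors of 0.928 to 1.07, quasi-likelihood test, Benjamini-Hochberg adjustment, threshold 0.05. Single values used exact permutation tests. DESeq2 1.42.0, limma 3.58.1, other scalings and filters, a block and left-out libraries were alternatives. No library copied another of its powder (chi-square over degrees of freedom, 497 to 1642 per pair).

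Named miRNAs were the family, its 3 neighbours in abundance on each side, the 5 most alike by each measure, and the marker lists. The members and lists were chosen with earlier results of these data known.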

Additional observations from a re-analysis of the deposited data

Results flagged for a closer look

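miR-181c stood apart in 1 of the 6 goat libraries. Whole A held it at 44.3 CPM (291 reads), while the other 5 goat libraries held 0 or 1 read each. The gap to the next library took up 0.997 of the whole range over the 6 libraries, above the limit of Dixon's test at 95%. Levels of miR-181a, miR-181b and miR-181d, the family sum and the log2 ratio of miR-181a to miR-181b did not pass that limit. Chance alone passes it in about 1 in 20 groups of normally distributed values, which counts of 0, 1 and 291 are not. Of all 364 miRNAs, 40, or 11.0%, had at least 100 reads in 1 goat library and at most 10 in each of the others. That total includes miRNAs too abundant or too scarce to show the pattern.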

How the results depend on the processing

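No alternative brought miR-181a or miR-181b past the threshold between the goat powders or turned the sign. Over 15 alternatives each, the log2 fold change was 0.07 to 0.26 for miR-181a (adjusted p 0.37 to 0.97) and -0.37 to -0.03 for miR-181b (0.83 to 0.99). DESeq2's Wald test gave 0.18 and -0.18 (adjusted p = 0.46 and 0.85), and library totals 0.12 and -0.24. The number of miRNAs called was 1 in the reported fit, 12 with DESeq2's Wald test, 4 above 100 CPM, 2 without a filter, and 0 with the replicate block or with another scaling. Whether the letters A to C pair the libraries was not settled by the correlations of their deviations. Same-letter pairs stood at -0.09, 0.07 and 0.37, and different-letter pairs between -0.26 and 0.16. With the replicate block the values were 0.21 (adjusted p = 0.57) and -0.18 (0.94). The family difference was 103 to 588 CPM over 10 alternatives, with 588 for TMM-scaled and 473 for totals without let-7a-5p, and the log2 ratio difference 0.25 to 0.61 over 9, with exact permutation p of at least 0.1 for both. With TMM over 7 libraries the bovine to goat log2 difference was -1.20 for miR-181a, -0.28 for miR-181b and -1.08 for the family, against -1.64, -0.72 and -1.52 on CPM. The family without miR-181c and miR-181d, chosen after seeing the data, differed by 282 CPM between the goat powders. Low counts limit miR-181c and miR-181d, which were at or below 4.33 reads in all libraries except whole A for miR-181c. Whole A had the smallest total of the goat libraries, at 6561887 miRNA reads.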

Other observations

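The bovine library held a group of miRNAs at a small share of their goat level, to which miR-181a and miR-181b did not belong. Of the 126 miRNAs with a goat mean of at least 100 CPM, 28 had a bovine to goat ratio under 0.02. Their ratios ran from 0.00529 to 0.0144 with a median of 0.00729, and their goat means spanned 109 to 1774 CPM. The next ratio above these 28 was 0.0295. Some of the 28 shared their values, such as miR-3613a with miR-3613b and miR-3578 with miR-382, so they are not all separate cases. The ratios of miR-181a and miR-181b were 0.321 and 0.605. Whether the reads behind these low bovine values came from the bovine sample was not tested. The limit of 0.02 was set after the values were seen.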
